A study of Mus musculus with 6 samples.

Results

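The natriuretic peptide system was described here through 8 mouse genes: Nppa, Nppb and Nppc for the peptides, Npr1, Npr2 and Npr3 for their receptors, and Corin and Furin for enzymes that cut the precursors. They were taken by symbol, and all 8 were found among the 55401 gene IDs of the deposited count table. The table held 6 heart libraries from mice with myocardial infarction, the death of heart muscle after a coronary artery is blocked. For 3 libraries the mice had spent 7 days in mild cold at 16 °C, and for the other 3 they were housed at a room temperature of 22 °C. Every mouse group carried an infarct, so no uninfarcted heart gave a baseline. The sources used here give neither strain, age, time since infarction nor the number of animals behind a library, so the p-values measure only how these libraries vary, and that variation may be technical.

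Heart muscle makes atrial natriuretic peptide (ANP, from Nppa) and B-type natriuretic peptide (BNP, from Nppb). Their precursors are cut into hormone, pro-ANP by the heart's membrane protease corin and pro-BNP by the convertase furin or by corin. Both hormones raise cyclic GMP through the receptor encoded by Npr1, which promotes salt excretion and relaxes vessels. C-type natriuretic peptide (Nppc) acts mainly through the receptor of Npr2, and the receptor of Npr3 takes up and removes all of them. In adult mice Nppa is strongly expressed in the atria, while in the ventricle Nppa and Nppb rise with wall stretch and after infarction, which is why both serve as marks of a loaded heart.

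The hormones share a ring closed by a pair of cysteines, and its coding bases are shown for Nppb and Nppc because this is the part that makes the peptides one family. The runs below come from the mouse transcripts of GENCODE M21 (GRCm38), 51 bases or 17 codons each, 5′ to 3′ on the coding strand, and the capitals mark the codons of the first and the last cysteine. Nppb lies on the plus strand of chromosome 4, and Nppc on the minus strand of chromosome 1.
Nppb: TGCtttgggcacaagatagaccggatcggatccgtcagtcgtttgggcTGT
Nppc: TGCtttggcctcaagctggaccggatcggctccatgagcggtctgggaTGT
Of the 51 bases, 40 were the same in Nppb and Nppc.

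Nppa and Nppb are close neighbours, and their promoters are printed because both genes were lower in mild cold. Each run is the 250 bases before the RefSeq start, on the plus strand of GRCm38.p6, with motif matches in capitals. The Nppa window is chr4:148000472-148000721 and the Nppb window is chr4:147985650-147985899. GENCODE M21 places the start of Nppb 112 bases before the RefSeq start, within that window. The motif matches marked for Nppb therefore lie after the GENCODE start, inside the gene as annotated there.
Nppa: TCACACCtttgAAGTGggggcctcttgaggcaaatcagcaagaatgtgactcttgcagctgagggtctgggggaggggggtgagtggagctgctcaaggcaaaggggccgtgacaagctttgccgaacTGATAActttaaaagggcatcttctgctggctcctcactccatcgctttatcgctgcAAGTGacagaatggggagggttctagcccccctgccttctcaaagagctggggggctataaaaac
Nppb: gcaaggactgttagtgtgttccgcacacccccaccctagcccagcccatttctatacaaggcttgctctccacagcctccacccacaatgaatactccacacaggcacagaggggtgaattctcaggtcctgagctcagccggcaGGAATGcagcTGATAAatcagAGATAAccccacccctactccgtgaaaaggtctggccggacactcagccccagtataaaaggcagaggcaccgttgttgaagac
Motifs were searched on both strands. The GATA motif (AGATAA or TGATAA) was found once in the Nppa window, from 122 bases before the start, and at 2 places in the Nppb window, from 95 and 84 bases before it. It is present in 16.6% of the 32851 mouse promoter windows of that length. The MCAT motif of TEAD factors (CATTCC, here read as GGAATG) was in the Nppb window and in 12.6% of all windows. The NKX2-5 motif (AAGTG) stood at 2 places in the Nppa window and occurs in 40.7% of windows, and the T-box motif (TCACACC) stood at its far end and occurs in 3.33%. No match overlapped another. Neither window held the AP-1 motifs (TGACTCA or TGAGTCA, 4.46% of windows), the SMAD motif CAGACA (17.1%) or the xenobiotic response core GCGTG (28.2%). The CArG box, searched only as CC, 6 bases of A or T, and GG (1.47%), was in neither. Forms of it with a mismatch were not searched. A match describes letters only, and its absence says only that those letters are not in this window. All 8 genes had a RefSeq window, and the GATA motif was in no window of the other 6 genes.

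Library totals ran from 41619023 to 65285901 counts. The labels call every sample a whole heart, yet the libraries did not hold the same tissue. In room temperature 1 the atrial light chain Myl7 had 28312 counts and the atrial calcium pump regulator Sln 9832, while in each of the other 5 libraries Myl7 had 0 to 18 and Sln 2 to 6. Room temperature 1 also held 8688 counts of Ucp1, the brown fat uncoupling protein, which had 0 to 2 elsewhere, and the highest sum of the 5 white adipocyte markers (949.9 CPM, against 0.161 to 353.9 CPM in the others). Levels are counts per scaled library total (CPM), with the scaling by edgeR's TMM method. Other libraries stood apart too. Mild cold 1 and 3 had 7248 and 7462 counts of the liver gene Alb, which had 10 to 879 elsewhere, and room temperature 3 had 1638 counts of the fast skeletal muscle myosin Myh4, which had 0 to 16 elsewhere. Their part in the results was not tested. Without mild cold 1, mild cold 3 or room temperature 3, the log2 fold change of Nppb was -1.01, -1.15 and -1.21, and that of Nppa was -2.14, -2.59 and -2.78. Each member is given with and without room temperature 1. Values are means ± SD with n = 3 libraries per group unless stated, and each log2 fold change divides mild cold by room temperature and carries the standard error (SE) of edgeR's quasi-likelihood test.

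The 2 main cardiac peptides were lower in every mild cold library than in any room temperature library, while the receptors and proteases were not separated. No member passed edgeR's adjusted p of 0.05 over the 16757 genes tested, and neither did any other gene (0% called). The smallest adjusted p of all genes was 0.0813. Limma-voom likewise called 0 genes, DESeq2 1414, among them 1 member. At an unadjusted p under 0.05, 2 of the 7 tested members were lower and 0 higher, where 10.6% of all genes were lower and 9.11% higher. Without room temperature 1, edgeR called 0 of the 7 members and 0.0116% of all genes. The groups did not overlap for 2 of the 7, both lower, against 13.1% of all genes that were lower without overlap. Nppc was left out by the expression filter.

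**Figure D1:**
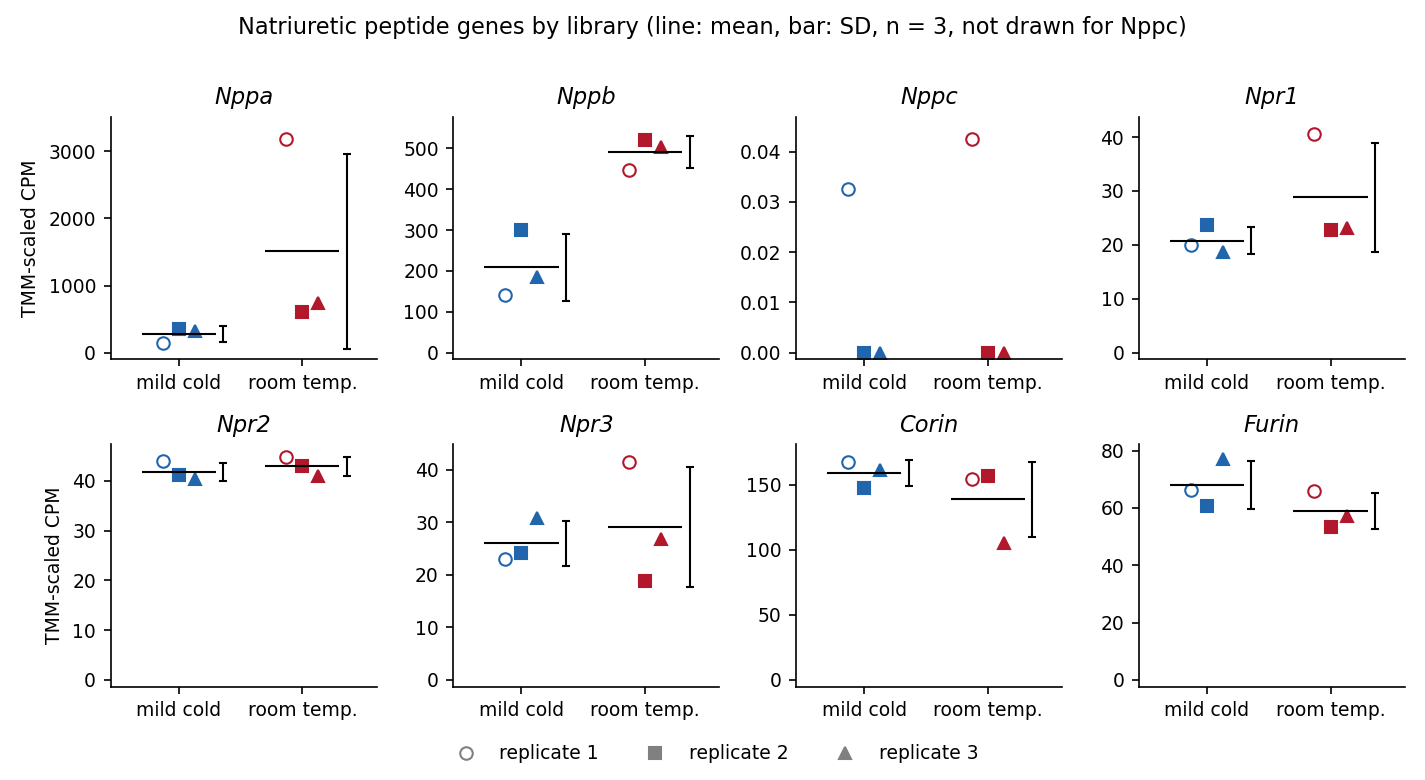
TMM-scaled CPM (vertical axis, starting at about 0) of each of the 8 genes in the 3 mild cold libraries (blue) and the 3 room temperature libraries (red); horizontal lines are means and bars are SD, neither drawn for Nppc. Nppb at 141.3 to 300.3 CPM in mild cold stayed below 446.1 CPM, the lowest room temperature library, and Nppa stood at 3189 CPM in room temperature 1.

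Nppb (ENSMUSG00000029019.8), the BNP gene, stood at 141.3, 300.3 and 186.4 CPM in the mild cold libraries 1 to 3 and at 446.1, 520.5 and 504.7 CPM in the room temperature libraries 1 to 3. The groups did not overlap, and the mild cold libraries spread more widely among themselves, with the highest 2.12 times the lowest, against 1.17 times at room temperature. The means were 209.3 ± 81.9 and 490.4 ± 39.2 CPM, 2.34-fold higher at room temperature in the fit (log2 fold change -1.23, SE 0.26, edgeR adjusted p = 0.0998, unadjusted p = 0.00193). Without room temperature 1 the log2 fold change was -1.29 (SE 0.29, edgeR adjusted p = 0.13). EdgeR called Nppb lower with scaling by library totals only (2.12% of genes called, 346 lower and 10 higher). That scaling put the median gene at -0.27 on the log2 scale. Without an expression filter edgeR also called Nppb lower (0.615% of genes called, 123 lower and 61 higher). The DESeq2 Wald test also called it lower, with an adjusted p of 7.88e-05 on all libraries, in a test that called 9% of genes (4.83% lower). Without room temperature 1 its adjusted p was 0.000497, with 5.94% of genes called. Nppb shares no exon bases with another annotated gene.

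Fewer cells of a type and less RNA per cell cannot be told apart in bulk hearts. The summed ventricular cardiomyocyte markers (8 of 8 found) ran from 35338 to 41496 CPM in mild cold and from 25030 to 35765 CPM at room temperature, with the groups overlapping. The summed fibroblast markers (8 of 8 found) were lower in mild cold without overlap, at 1482 to 2443 CPM against 2686 to 4054 CPM at room temperature. The summed mural markers (8 of 8 found) were higher in mild cold without overlap, at 1837 to 1856 CPM against 1379 to 1577 CPM. None of these markers was at 0 in all libraries, and their part in the Nppb difference was not tested.

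Nppa (ENSMUSG00000041616.9), the ANP gene, stood at 144.8, 356.5 and 325.3 CPM in the mild cold libraries 1 to 3 and at 3189, 603.7 and 732.8 CPM in the room temperature libraries 1 to 3. The groups did not overlap, as for the 13.1% of all genes that were lower without overlap. Room temperature 1 lay 4.35 times above the next highest library and made up 70.5% of the room temperature sum. The mean was 275.6 ± 114 CPM for the cold group and 1508 ± 1457 CPM for the other. The log2 fold change was -2.45 (SE 0.69, edgeR adjusted p = 0.141, unadjusted p = 0.00847).

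Without room temperature 1, the Nppa difference was -1.28 on the log2 scale (SE 0.35, edgeR adjusted p = 0.174), a size beside which Nppb had -1.29. The fitted Nppa ratio of room temperature to mild cold thus moved from 5.47-fold to 2.43-fold with that library left out. DESeq2 gave Nppa an adjusted p of 0.0552 on all libraries, and called it lower without room temperature 1 (adjusted p = 0.00507). The atrial list (8 of 8 found) summed to 60.1 to 97.1 CPM in mild cold, and to 2240, 155.1 and 185.6 CPM in the room temperature libraries 1 to 3. In room temperature 2 and 3, Myl7 was at 0.431 and 0 CPM and Sln at 0.144 and 0.0816 CPM. Myl4, also on the list, was at 1.70 and 1.90 CPM there, against 0.748, 1.31 and 1.36 CPM in mild cold 1 to 3. Bmp10 had 40 counts in room temperature 2 and 0 to 8 elsewhere. The part of atrial transcripts in the Nppa values of room temperature 2 and 3 was not tested. Most of the atrial sum in those 2 libraries was Dkk3, a secreted glycoprotein on the atrial list, at 115 and 143.6 CPM, against 23.1, 52.5 and 55.8 CPM in mild cold 1 to 3.

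Of the exon bases of Nppa, 61.5% are shared with Gm13054, an antisense gene. The strand setting of the counting is not given in the sources used here, so reads of the pair cannot be told apart with certainty. Gm13054 itself had 13, 6 and 16 counts in the mild cold libraries 1 to 3 and 189, 34 and 56 in the room temperature libraries 1 to 3, the same order of groups as Nppa (log2 fold change -2.84, SE 0.78, edgeR adjusted p = 0.138). Without room temperature 1 it was -1.61 (edgeR adjusted p = 0.239). Its counts were a small fraction of the 8911 to 149898 counts of Nppa. This does not measure how many reads the overlap affected, since the handling of shared reads is not given.

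**Figure D2:**
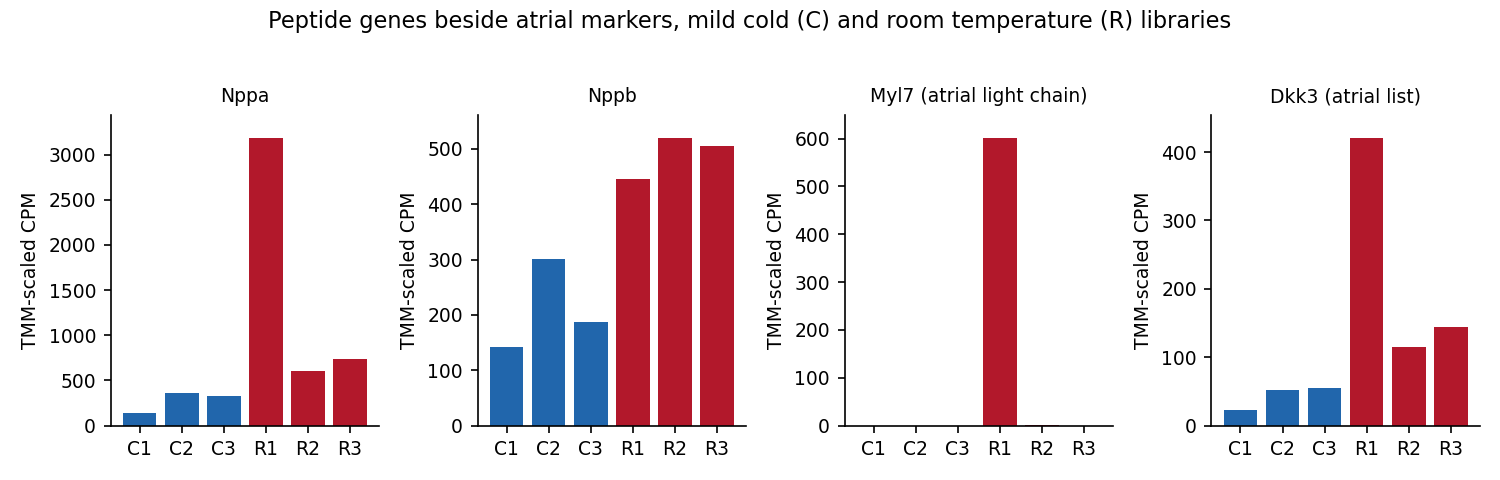
TMM-scaled CPM (vertical axes from 0) of Nppa, Nppb, the atrial light chain Myl7 and Dkk3 of the atrial list. Libraries are mild cold C1 to C3 and room temperature R1 to R3. Dkk3 was also present outside R1, at 23.1 to 143.6 CPM. Myl7 was at 602.3 CPM in R1 and at most 0.431 CPM elsewhere, whereas Nppb was not highest in R1 (446.1 CPM, against 520.5 CPM in R2).

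Within a library, the ratio of Nppa to Nppb counts does not depend on scaling. It was 1.02, 1.19 and 1.75 in the mild cold libraries 1 to 3 and 7.15, 1.16 and 1.45 in the room temperature libraries 1 to 3, uncorrected for gene length. Room temperature 1 stood far above the other 5 libraries, which ran from 1.02 to 1.75. The mean log2 ratio was 0.36 ± 0.40 for the cold group and 1.20 ± 1.43 for the room temperature group, which differ by -0.83 (2-sided exact permutation p = 0.6, n = 3 per group, where the smallest possible p is 0.1). Leaving out room temperature 1 brought the difference to -0.01 (exact permutation p = 1, with 3 against 2 libraries and a smallest possible p of 0.2).

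Nppc (ENSMUSG00000026241.5), the gene of C-type natriuretic peptide, a peptide of endothelium and growing cartilage, had 2 counts in mild cold 1, 2 in room temperature 1 and 0 in each of the other 4 libraries. At these depths 3 counts, the limit that a count of 0 allows, correspond to 0.0408 to 0.0804 CPM in the 4 libraries at 0, counting error alone considered. Counts from 1 to 10 were mostly even, so if both mates of a read pair were counted, the limit would be higher than these values. No difference between the groups was detectable at this depth, and no fold change is given.

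Among the receptors, Npr1 (ENSMUSG00000027931.12), the guanylyl cyclase that binds ANP and BNP, had 20.0, 23.6 and 18.7 CPM across mild cold 1 to 3. At room temperature it stood at 40.5, 22.7 and 23.1 CPM in libraries 1 to 3. Room temperature 1 was alone at the top, and the other 5 libraries lay between 18.7 and 23.6 CPM with the groups overlapping. The log2 fold change was -0.47 (SE 0.23, edgeR adjusted p = 0.315) and moved to -0.14 without room temperature 1 (SE 0.13, adjusted p = 0.651). An antisense gene, Gm16048, shares 11.7% of the exon bases of Npr1 and had 0 to 4 counts per library.

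Npr2 (ENSMUSG00000028469.15), the guanylyl cyclase of C-type natriuretic peptide, was the steadiest member. Its 6 values ran from 40.4 to 44.9 CPM, with means of 41.8 ± 1.82 CPM for the cold group and 42.9 ± 1.97 CPM for the room temperature group. The log2 fold change was -0.04 (SE 0.08, edgeR adjusted p = 0.85), and -0.0036 without room temperature 1 (SE 0.09, adjusted p = 0.991). The RNA of the matching peptide, Nppc, was at or near 0 in the same libraries.

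Npr3 (ENSMUSG00000022206.7), the clearance receptor, which has no cyclase and is a known marker of endocardium and of fat cells, had 23.0, 24.2 and 30.9 CPM across mild cold 1 to 3. It had 41.6, 18.9 and 26.8 CPM across room temperature 1 to 3, so that the room temperature group held both the highest and the lowest value. The log2 fold change was -0.16 (SE 0.27, edgeR adjusted p = 0.784), and its direction turned without room temperature 1, to 0.18 (SE 0.19, adjusted p = 0.712). Beside these values, the 8 endocardial markers summed to 189.2 to 229.2 CPM in mild cold and to 379.9, 228.9 and 266.7 CPM in room temperature 1 to 3. The fat cell hormone Adipoq had 204.3, 19.2 and 57.4 CPM across room temperature 1 to 3 and at 0.0975, 0.0536 and 15.1 CPM in the mild cold libraries 1 to 3. Their part in the Npr1 and Npr3 values was not tested.

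The ratio of Npr3 to Npr1 counts, the clearance receptor against the signalling receptor, was 1.15, 1.02 and 1.65 in mild cold 1 to 3. At room temperature it was 1.03, 0.832 and 1.16, and the groups overlapped. Room temperature 1, the library with the highest level of both receptors, did not stand apart in this ratio. The mean log2 ratio differed by 0.32 (0.32 ± 0.36 in mild cold and 0.00 ± 0.24 at room temperature, exact permutation p = 0.5).

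Corin (ENSMUSG00000005220.10), the serine protease of heart muscle membranes that cuts pro-ANP, stood at 168, 148 and 161.9 CPM in the mild cold libraries 1 to 3 and at 154.3, 157.3 and 105.7 CPM in the room temperature libraries 1 to 3. Room temperature 3 was the low library, and the rest lay between 148 and 168 CPM. The log2 fold change was 0.20 (SE 0.16, edgeR adjusted p = 0.544) with TMM scaling, 0.28 (SE 0.18) without room temperature 1, 0.03 without room temperature 3, and -0.05 when counts were scaled by library totals alone. That scaling shifted the median gene, from -0.02 to -0.27 on the log2 scale.

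Furin (ENSMUSG00000030530.15), the convertase of the secretory pathway that also cuts precursors of growth factors, had 66.3, 60.8 and 77.1 CPM across mild cold 1 to 3. At room temperature it stood at 65.8, 53.5 and 57.1 CPM. The groups overlapped through room temperature 1 only, and without it every mild cold library was above both room temperature libraries, as for 15.9% of all genes. The log2 fold change was 0.21 (SE 0.12, edgeR adjusted p = 0.382), 0.30 without room temperature 1 (SE 0.13, adjusted p = 0.332) and -0.05 with library totals only. The ratio of Corin to Furin counts ran from 2.1 to 2.53 in mild cold and from 1.85 to 2.94 at room temperature, a mean log2 difference of 0.01 (exact permutation p = 1).

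**Figure D3:**
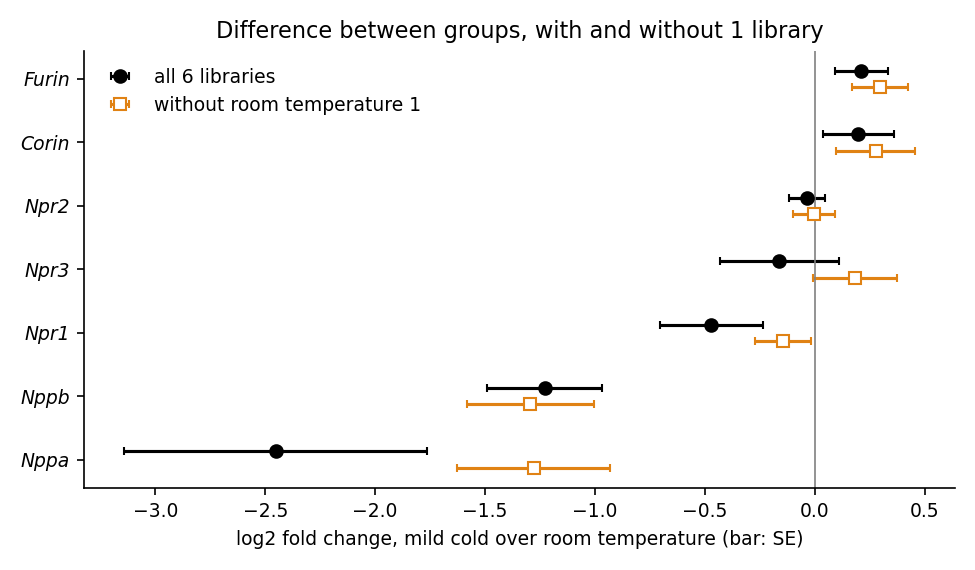
Log2 fold change of the 7 tested genes, mild cold over room temperature (horizontal axis), with bars for the SE, on all 6 libraries (filled circles) and without room temperature 1 (open squares). Nppa moved from -2.45 to -1.28, next to Nppb at -1.29, and Npr3 crossed 0, from -0.16 to 0.18.

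Levels of different genes can be compared only per length of exon. The length of Nppa included the bases shared with Gm13054, and their effect on its level was not tested. In CPM per kilobase at room temperature, Nppa (1744 ± 1684) and Nppb (628 ± 50.2) came first, and their order in mild cold was the same (318.6 ± 132 and 268 ± 105). Without room temperature 1, the room temperature means of Nppa and Nppb were 772.6 and 656.3 CPM per kilobase. The ranges of these 2 genes overlapped in mild cold, where Nppb was the higher in mild cold 1 (181 against 167.4 CPM per kilobase). Corin followed at 25.8 ± 5.36 at room temperature and 29.5 ± 1.90 in mild cold, and then Npr2 at 9.19 ± 0.421 and 8.97 ± 0.390. Furin stood at 6.41 ± 0.688 and 7.42 ± 0.905, below the range of Npr2 in both groups. Npr1 stood at 6.02 ± 2.13 and 4.34 ± 0.530, overlapping with Furin at room temperature but not in mild cold. Npr3 came last of the tested genes, at 3.10 ± 1.22 and 2.77 ± 0.453, below Npr1 in both groups.

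**Figure D4:**
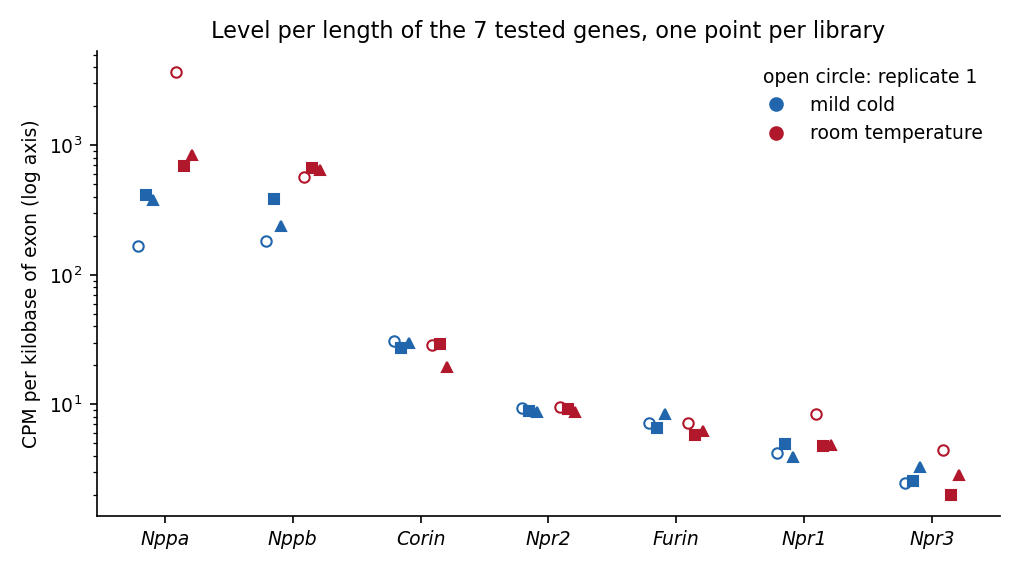
CPM per kilobase of annotated exon (vertical log axis) of the 7 tested genes, 1 point per library, mild cold in blue and room temperature in red, with replicate 1 as open circles. The peptide genes lie above the protease and receptor genes in every library, from 167.4 CPM per kilobase upward, while Corin, the next gene, stays at or below 31.1 CPM per kilobase.

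Downstream of the receptors, 20 genes of cyclic GMP signalling were found and 19 tested. None passed over all genes. At an unadjusted p under 0.05, 1 was higher and 5 lower, where 9.11% of all genes were higher and 10.6% lower. The median log2 fold change of the list was -0.20 (-0.17 without room temperature 1), against -0.02 over all genes tested. Of the genes in this list and the other 2 lists below, limma-voom called 0. Gucy1a1, the alpha subunit of the nitric oxide receptor that also makes cyclic GMP, had means of 35.0 ± 6.02 CPM under mild cold and 50.4 ± 7.72 CPM without it (log2 fold change -0.53, SE 0.16, edgeR adjusted p = 0.153). DESeq2, which called 4.83% of all genes lower, called it lower (adjusted p = 0.0431), but not without room temperature 1 (-0.56, adjusted p = 0.0878). Pde3b, a phosphodiesterase known from fat cells, had 122 CPM in room temperature 1 against 6.81 to 23.3 CPM in the other 5 libraries, and its log2 fold change moved from -2.31 to -0.91 without that library. Pde1c, a calcium-activated phosphodiesterase, was at -0.37 and Abcc4, an exporter of cyclic nucleotides, at 0.30 on the log2 scale.

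Of 19 genes that cut, modify or compete with these peptides, 14 were tested and 0 passed. At an unadjusted p under 0.05, 1 was lower and 0 higher, where 10.6% of all genes were lower and 9.11% higher. The median log2 fold change of the list was -0.18 (-0.12 without room temperature 1). Pcsk5, a convertase related to furin, stood at 5.69, 5.98 and 5.80 CPM in the mild cold libraries 1 to 3 and at 13.8, 8.70 and 8.51 CPM in the room temperature libraries 1 to 3. The groups did not overlap, as for the 13.1% of all genes that were lower without overlap. The log2 fold change of Pcsk5 was -0.83 (SE 0.21, edgeR adjusted p = 0.12), and -0.56 without room temperature 1. DESeq2 called the gene lower (adjusted p = 0.0122), as it did 4.83% of all genes. Pam, an amidating enzyme that is a major membrane protein of atrial hormone granules, had 2556 CPM in room temperature 1 and 738.6 to 1001 CPM elsewhere. Its log2 fold change went from -0.89 to -0.26 without that library. Fap, a protease of activated fibroblasts, was at -0.38, and Dpp4, a peptidase that trims BNP, at -0.51 (-0.05 without room temperature 1).

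Of 26 genes known to regulate the Nppa and Nppb promoters, 24 were tested and 0 passed. At an unadjusted p under 0.05, 2 were lower and 0 higher, where 10.6% of all genes were lower and 9.11% higher. The median log2 fold change of the list was 0.01 (0.07 without room temperature 1). Tbx20, a T-box factor of the heart, had means of 109.1 ± 21.7 CPM under mild cold and 175.1 ± 31.7 CPM without it (log2 fold change -0.68, SE 0.19, edgeR adjusted p = 0.136, and -0.58 without room temperature 1). Nfatc4, a transcription factor activated by calcineurin in hypertrophy, stood at 6.40 ± 1.88 and 11.0 ± 0.996 CPM (-0.78, SE 0.22, edgeR adjusted p = 0.143). DESeq2, which called 4.83% of all genes lower, called both lower (adjusted p = 0.0132 for Tbx20 and 0.0241 for Nfatc4). It called neither without room temperature 1 (adjusted p = 0.104 and 0.0567). There it called 5.94% of all genes. Among them was Tbx5, called higher, a T-box factor named here after its values were seen (log2 fold change 0.999, SE 0.25, DESeq2 adjusted p = 0.00332). On all libraries Tbx5 was at -0.30 in edgeR (SE 0.64, adjusted p = 0.839), with 36.7 CPM in room temperature 1 against 6.58 to 16.4 CPM in the other 5. Nfatc3, a related factor, was at -0.22, and Hand2, a basic helix-loop-helix factor, at 0.32 on the log2 scale.

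The genes most like each of 4 members were found by the root-mean-square difference of centred log2(CPM + 1) values among 12319 candidates. A candidate needed a mean of at least 2 CPM over all 6 libraries. This is a description of these libraries, which share depth and scaling. Over all 6 libraries, those nearest to Nppa were Dkk3 (difference 0.20), Acan, the cartilage proteoglycan aggrecan, Smoc1, Cytl1 and Cnn1, a smooth muscle calponin. Each of them was highest in room temperature 1, which the choice by likeness to Nppa fixed in advance. Acan had 18.0 CPM there and 0.0325 to 2.68 CPM elsewhere, so its mean rested mostly on that library. Over the 5 libraries without room temperature 1, the nearest genes were Frzb, a Wnt antagonist (0.06), Spp1, osteopontin, Lox, which crosslinks collagen, Itgbl1 and Ptn, a secreted growth factor. None of the first 5 genes was among the second 5.

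Nearest to Nppb over 6 libraries were Tnfrsf11b, osteoprotegerin (0.12), Ankrd1, a stretch-induced muscle protein (0.19), Pamr1, Fst, the activin antagonist follistatin, and Dnm3os. Tnfrsf11b and Fst were low in mild cold, at 1.07 to 2.52 and 0.715 to 2.47 CPM, where the 1 added to CPM shrinks differences. Their log2 fold changes were -1.73 and -1.72, against -1.23 for Nppb. Over 5 libraries the genes nearest to Nppb were Cthrc1 (0.07), Tnfrsf11b, Gdf15, a stress hormone, Cytl1 and Dio2, the deiodinase that makes active thyroid hormone. Nearest to Corin over 6 libraries were Hspd1, a mitochondrial chaperone (0.04), Spsb1, Bckdha, Mylk3, the cardiac myosin light chain kinase, and Ccdc141. Over 5 libraries they were Atg10, Acat1, Lrrc39, Acadm, an enzyme of fatty acid oxidation, and Vdac3-ps1. Nearest to Npr3 were Lrp3 (0.08), Dync2li1, Trit1 and Wdr66 over 6 libraries, and Adamts14, Prkag3, Zfp707, Shroom2 and Lrp3 over 5.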

How the data were processed

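The authors deposited raw counts per gene for 6 heart libraries, made with featureCounts 2.0.3 on GRCm39, per the submitters' processing notes. The sources used here give no aligner, annotation release, strand setting or pair handling. In each library, between 71.9% and 78.3% of counts from 1 to 10 were even, so fragments can be fewer than counts. No pair of libraries held identical counts. Symbols, exon lengths and exon overlaps came from GENCODE M21 by ID without version (55141 of 55401 IDs matched), and promoters from RefSeq (GRCm38.p6).

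Genes were tested on counts with edgeR 4.0.16 in R 4.3.3 (quasi-likelihood, group only, default expression filter, TMM), 2-sided, with Benjamini-Hochberg adjustment over all 16757 genes and a threshold of 0.05. DESeq2 1.42.0, limma 3.58.1, other scalings and filters, the replicate block and leaving out each library were alternatives. Ratios took counts plus 0.5 and an exact permutation test. Members and lists were chosen with earlier results of these data known. Named were all members, up to 4 genes per list by smallest p, the 5 genes nearest to each of 4 members, and genes sharing exons with a member. An item that the rule takes is not reported here. On data simulated for 16411 genes in 3 against 3 libraries, recovery at a 1.5-fold change was 3 of 50, at 2-fold 24 of 50, at 4-fold 43 of 50 and at 8-fold 48 of 50, and 16 unchanged genes were called. The simulated libraries did not carry the differences in tissue content seen between the real ones, so these rates may not hold for the real libraries.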

Additional observations from a re-analysis of the deposited data

How the results depend on the processing

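With 3 libraries a group, single-gene calls depended on the tool. Genes called over all genes were 0 with edgeR, 356 with library totals only, 184 without an expression filter, 1 with the replicate block, 0 to 2 with 1 library left out, 1414 with DESeq2 and 944 with DESeq2 without room temperature 1, an alternative chosen after seeing the data. Of the members, edgeR called 0, library totals only 1 (Nppb, -1.50, adjusted p = 0.0371), no filter 1 (Nppb, -1.23, adjusted p = 0.045), DESeq2 1 (Nppb, -1.22), and DESeq2 without room temperature 1 called 2 (Nppa, -1.27, and Nppb, -1.29). In the gene lists, of 19, 14 and 24 genes tested in edgeR, DESeq2 called 1 of cyclic GMP signalling, 1 of peptide proteolysis and 2 promoter regulators. It called 9% of all genes there. Without room temperature 1 it called 0, 1 (Pcsk5) and 1 (Tbx5, higher), where it called 5.94% of all genes. Gucy1a1, Tbx20 and Nfatc4 were then no longer called. Nppa and Nppb were lower under every alternative run, from -2.82 to -1.27 and from -1.58 to -1.01, with adjusted p up to 0.32 and 0.257. Directions turned for Npr3 (-0.38 to 0.18 with 1 library left out, and 0.19 with DESeq2 without room temperature 1), Npr2 (0.0070 there), Corin (-0.048) and Furin (-0.047) with library totals only, and the Corin to Furin ratio (-0.16 to 0.17 with 1 library left out). The cause was not tested. Leaving out a library moved the Nppa to Nppb difference between -1.33 and -0.01, and the Npr3 to Npr1 difference between 0.12 and 0.47.

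Libraries with the same replicate number did not deviate together (r = 0.12, -0.13 and -0.01 for numbers 1 to 3). Pairs with different numbers ran from -0.44 (mild cold 1 with room temperature 3) to 0.40 (mild cold 2 with room temperature 3). With the replicate number as a block, Nppa was at -2.01 (adjusted p = 0.299) and Nppb at -1.30 (adjusted p = 0.116). For Nppc, depth limits what can be said.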
